A study of Mus musculus and Ictidomys tridecemlineatus with 36 samples.

Results

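The retinal pigment epithelium is the pigmented cell layer behind the neural retina, and the 8 genes described here are among those that define it. They were listed by their known function, as Otx2 targets outside the neural retina: Mitf, Tyr, Tyrp1, Dct, Pmel, Rpe65, Best1 and Lrat, 8 of the 21938 protein-coding genes of the GENCODE M21 mouse annotation. For each gene, peaks were taken within 1 kb of any annotated transcription start site (TSS), called promoter peaks, and in the gene body plus 20 kb on each side, called the gene window.

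The pigment epithelium and the neural retina arise from the same optic neuroepithelium, and the homeodomain factor Otx2 is used in both. In pigment epithelium Otx2 acts together with the bHLH-zipper factor Mitf on the genes of melanin synthesis, whereas in neural retina it drives photoreceptor and bipolar cell fate. Tyr encodes tyrosinase, the enzyme that starts melanin synthesis. Tyrp1 and Dct encode tyrosinase-related enzymes of the later steps, and Pmel encodes the protein of the fibrils on which melanin is laid down. Lrat esterifies retinol and Rpe65 turns the ester into 11-cis-retinol, consecutive steps of the visual cycle. Best1 encodes bestrophin, a chloride channel of the basolateral membrane.

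The study compared developing retinas of mouse, whose photoreceptors are mainly rods, with those of the cone-rich 13-lined ground squirrel (13LGS), and asked which regulatory elements differ. The values here come from the mouse CUT&RUN experiment, which cuts and sequences the DNA around an antibody-bound protein. It used whole retinas from postnatal day 2 (P2), a stage rich in late progenitors and photoreceptor precursors, from mice with no genetic change named in the labels, in 2 biological replicates that each pooled retinas of 3 individuals. Of the 36 libraries 20 were mouse: 8 for Otx2 (4 with the R&D Systems antibody and 4 with the Atlas antibody), 4 for Neurod1, and 2 each for H3K4me3, H3K27ac, H3K4me1 and the IgG control. The 13LGS lists, from P5 animals, were not used here.

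H3K4me3 marks promoters that are active or ready to be used, H3K27ac marks active promoters and enhancers, and H3K4me1 marks enhancers, active or not. Neurod1 is a bHLH factor of photoreceptor precursors. A peak has a single joint value over the libraries of its target, the fold enrichment over IgG at its summit, together with a q-value. No spread between replicates could therefore be given, no difference could be tested, and the read depth behind a peak is unknown. Comparisons below set a peak or a count beside the whole list or beside all protein-coding genes. In chromatin of whole retinas, a weak mark in most cells and a strong mark in a few cells cannot be told apart. Whether pigment epithelium was taken off the mouse retinas is not given in the sources used here.

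Marker genes were checked against the label of neural retina. Promoter H3K4me3 peaks were present at 7 of 8 photoreceptor precursor markers and at 7 of 7 progenitor markers, and at 0 of 6 lens fibre markers and 0 of 6 microglia markers. The share over all protein-coding genes was 56.0%. Promoter H3K4me1 was present at 5 of 6 lens fibre and 2 of 6 microglia markers, against 63.6% of all genes. H3K27ac, Otx2 and Neurod1 were each present at 1 of 6 microglia markers and at 0 of 6 lens fibre markers. Over all genes the promoter shares were 22.6%, 51.0% and 5.76% in that order. At photoreceptor precursor markers the counts were 7, 6 and 4 of 8, and at progenitor markers 6, 6 and 0 of 7. The photoreceptor marker without promoter H3K4me3 was Rcvrn, which had no promoter peak of any list. Of the 6 endothelial markers only Kdr, 1 of 6, had promoter H3K4me3, while promoter H3K4me1 was present at 5 of 6. Among 5 melanocyte markers, Kit, Ednrb and Erbb3, 3 of 5, had promoter H3K4me3, while Sox10, the neural crest factor, had H3K4me1 alone at 4.27-fold and Mc1r had H3K4me1 at 4.65-fold with Otx2 at 6.07-fold.

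Promoter H3K4me3 was present at 2 of the 8 pigment epithelium genes, Mitf and Pmel, against 56.0% of all protein-coding genes. A promoter H3K27ac peak was present at 1, Tyrp1, against 22.6%. Promoter H3K4me1 was present at 6, all but Tyr and Rpe65, against 63.6%. Promoter Otx2 peaks were present at 5, Mitf, Tyrp1, Dct, Pmel and Best1, against 51.0%. No gene of the 8 had a promoter Neurod1 peak, which 5.76% of all genes had. Of the 5 genes with promoter Otx2, 3 (Tyrp1, Dct and Best1) had no promoter H3K4me3, which was the case for 5.08% of all genes with promoter Otx2. Best1 counted there only through a transcript annotated without coding sequence. With protein-coding transcripts only, 4 genes had promoter Otx2. With 8 genes, 1 gene more or less moves a share by 12.5 percentage points. The H3K27ac, H3K4me1, Otx2 and Neurod1 counts lay within that step of the share over all genes.

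**Figure D1:**
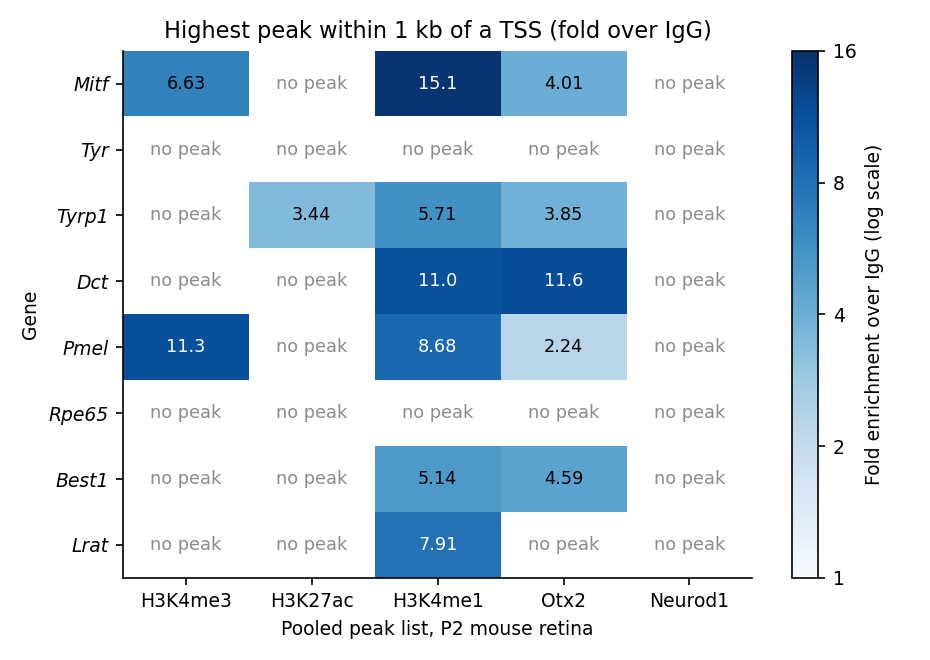
Fold enrichment over IgG (colour, log scale, and printed value) of the highest peak within 1 kb of any TSS, for the 8 genes (rows) in the 5 pooled P2 mouse lists (columns). Tyr and Rpe65 are blank in all columns, the Otx2 column runs from 2.24 (Pmel) to 11.6 (Dct), and Neurod1 is blank throughout.

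Dct, whose enzyme is dopachrome tautomerase, carried the strongest Otx2 peak of the 8 genes. The gene lies on the minus strand of chromosome 14 (GRCm38 chr14:118012790-118052244, ENSMUSG00000022129.4). Its Otx2 peak reached 11.6-fold over IgG (−log10 q 66.2), was 1023 bp wide and had its summit in intergenic sequence 227 bp upstream of the first TSS. It ranked 444 of 29115 Otx2 peaks, so that 1.52% of the list was at least as high, whereas the median of the list was 3.54-fold. The other Otx2 peaks in the gene windows lay between 2.24-fold and 4.59-fold.

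Around that peak H3K4me1 was present and the marks of active promoters were absent from the lists. An H3K4me1 peak of 11.05-fold and 4729 bp covered the Dct start on both sides, and 3.32% of H3K4me1 peaks were at least as wide. No H3K4me3 or H3K27ac peak lay in the 79.5 kb window, and the nearest H3K4me3 peak was 35.9 kb from any Dct TSS. This combination of H3K4me1 and Otx2 without the other marks was present at 352 genes, 1.60% of all. Among those 352 genes Dct had the highest promoter Otx2 value, rank 1, against a median of 3.11-fold. Among the 569 genes with promoter Otx2 and no promoter H3K4me3, 2.59% of all genes, it ranked 3. Among all 11192 genes with promoter Otx2 it ranked 183, with 1.64% at least as high. These ranks were computed after the Dct value was known. Of the 79 marker and pathway genes examined, 7 had the Dct pattern, including Efemp1, Gnat1 and Grk1.

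The 250 bases upstream of the RefSeq start site of Dct lie wholly inside the Otx2 peak, and they are shown because they hold letters matching both factors of this gene set. The capitals mark TAATCC, the core bound by Otx2 and its relative Crx, and CATGTG, the E-box form bound by Mitf, on either strand (CACATG is CATGTG on the opposite strand). The TAATCC starts 119 bases before the start site and lay 111 bp from the Otx2 summit. The CATGTG matches start 150 and 232 bases before it.
Dct (GRCm38 chr14:118052247-118052496, minus strand): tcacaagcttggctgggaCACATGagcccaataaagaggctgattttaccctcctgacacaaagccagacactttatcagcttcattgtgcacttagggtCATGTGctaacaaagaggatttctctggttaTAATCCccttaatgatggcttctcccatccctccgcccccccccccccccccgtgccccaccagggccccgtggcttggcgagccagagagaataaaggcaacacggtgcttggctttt

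Tyrp1, which acts after Dct in the making of eumelanin, was the gene with promoter H3K27ac. It lies on the plus strand of chromosome 4 (GRCm38 chr4:80834123-80851719, ENSMUSG00000005994.14). An Otx2 peak of 3.85-fold (−log10 q 11.6, 600 bp) had its summit in the annotated UTR, 0.263 kb downstream of the first TSS. It overlapped H3K4me1 at 5.71-fold and an H3K27ac peak of 3.44-fold that was 311 bp wide, with no H3K4me3 within 63.8 kb of a Tyrp1 TSS. The H3K27ac peak had a −log10 q of 4.91, and 46.5% of H3K27ac peaks were at least as high. With a −log10 q of at least 5 required, 0 H3K27ac peaks remained in the 8 windows. A further H3K27ac peak of 2.69-fold lay in an intron, 5.47 kb from the first TSS, under H3K4me1 at 10.2-fold. These were the only H3K27ac peaks of the 8 windows away from the start of another coding gene. Promoter H3K27ac with H3K4me1 and Otx2 but without H3K4me3 was present at 95 genes, 0.433% of all, and 1 of the 79 listed genes shared it: Abca4, the retinoid transporter of photoreceptor outer segments.

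Tyr, at the head of the same pathway, had no promoter peak of any list, which was true of 31.3% of all protein-coding genes. The gene lies on the minus strand of chromosome 7 (GRCm38 chr7:87424771-87493512, ENSMUSG00000004651.6). The nearest Otx2 peak was 272 kb and the nearest H3K4me3 peak 784 kb from a Tyr TSS. Its window of 109 kb held 3 H3K4me1 peaks, of which 2 were weak (3.00-fold in a coding exon and 3.17-fold in an intron). The third reached 20.96-fold, was 2998 bp wide and lay in intergenic sequence past the 3′ end of the gene, 80.0 kb from the first TSS (GRCm38 chr7:87411826-87414823). It was the highest H3K4me1 peak among the 45 in the 8 windows, and 1.303% of that list was at least as high. No other peak overlapped it, and which gene it serves was not tested.

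**Figure D2:**
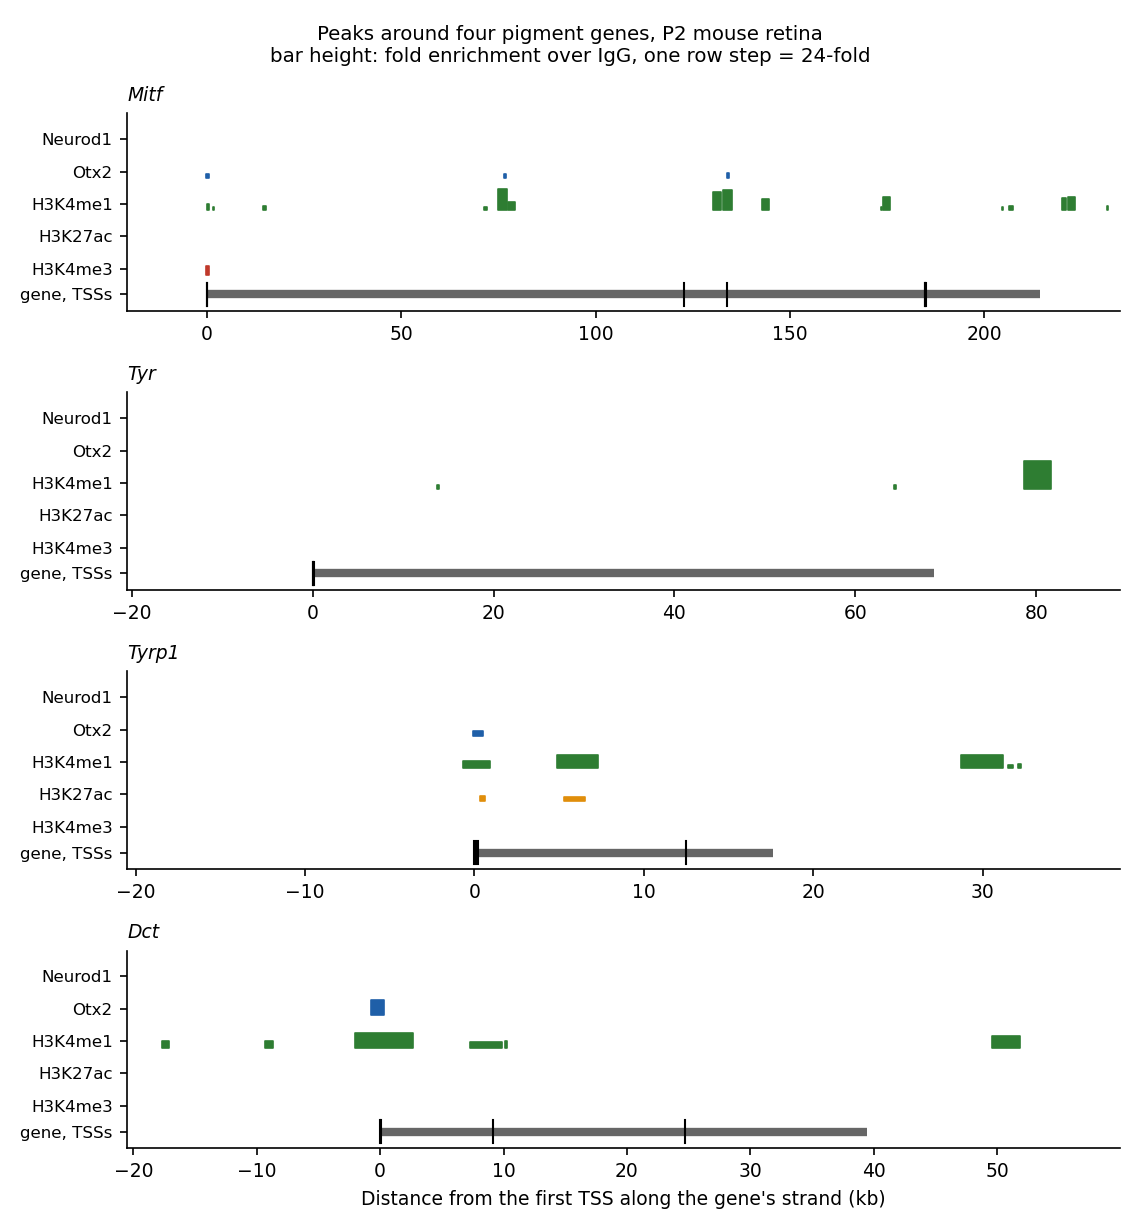
Peaks of the 5 lists (rows) around Mitf, Tyr, Tyrp1 and Dct against distance from the first TSS along the gene's strand (kb); bar height is fold enrichment over IgG, the grey bar is the gene and black ticks are annotated TSSs. The Otx2 bar at Dct (11.6-fold) and the distal H3K4me1 bar of Tyr (20.96-fold) stand out, and H3K27ac appears at Tyrp1 alone.

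Before the RefSeq start sites of Tyr, Tyrp1 and Dct the E-box letters stood in the same context. RefSeq start sites were available for 7 of the 8 genes, at 9 positions, all but Pmel. CATGTG was present in the 250 bases upstream of 4 of these genes (Tyr, Tyrp1, Dct and Rpe65), against 12.3% of 32817 mouse promoters of that length. A gene counted if any of its start sites had a match, whereas the 32817 promoters were counted singly, so the units differ. The longer string TCATGTGCT, which holds CATGTG and was searched on both strands after the sites had been seen, was present at 3 of the genes and in 0.335% of all promoters. The 26 bases around each CATGTG are shown to compare these contexts, with CATGTG in capitals and each sequence read on the strand that carries it.
Tyr (GRCm38 chr7:87493518-87493543, minus strand): aaaagttagtCATGTGctttgcagaa
Tyrp1 (GRCm38 chr4:80834157-80834182, plus strand): gggagggagtCATGTGctgcctagta
Dct, nearer site (GRCm38 chr14:118052381-118052406, minus strand): cacttagggtCATGTGctaacaaaga
Dct, farther site (GRCm38 chr14:118052463-118052488, plus strand): ttattgggctCATGTGtcccagccaa
Rpe65 (GRCm38 chr3:159598932-159598957, minus strand): aaaaaagagcCATGTGggcctgccat

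The Tyr, Tyrp1 and nearer Dct sites hold TCATGTGCT, and the farther Dct site and the Rpe65 site do not. The Tyrp1 stretch lies before the RefSeq start but downstream of the first GENCODE TSS, in annotated UTR. The Tyrp1 and Dct sites lay under Otx2 peaks and the Tyr site, 21 bases before the start, lay under no peak of any list. Letters of this kind are a description, and binding of Mitf was not measured. Of the other E-box forms searched, CACGTG (6.02% of promoters) and CAGATG (14.5%) were found upstream of 0 of the 7 genes.

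Mitf, the factor of melanin genes itself, had the most peaks. The gene spans 214 kb on the plus strand of chromosome 6 (GRCm38 chr6:97807052-98021349, ENSMUSG00000035158.15), with 8 annotated transcripts from several alternative promoters. As background, the promoter nearest the 3′ end is the one used in melanocytes, and the upstream promoters are used more widely, including in pigment epithelium. The first TSS had the only H3K4me3 peak, 6.63-fold and 711 bp wide, below the list median of 13.5-fold, and 71.9% of H3K4me3 peaks were at least as high. It overlapped H3K4me1 at 4.76-fold and Otx2 at 3.16-fold (−log10 q 5.21), whose summit fell in the UTR 37 bp from that TSS.

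An internal Mitf start had H3K4me1 and Otx2 peaks without H3K4me3 or H3K27ac. At the TSS of transcript Mitf-204, 134 kb into the gene, H3K4me1 reached 15.1-fold over 2444 bp and Otx2 4.01-fold, with the Otx2 summit in a coding exon 342 bp downstream of that TSS. Another Otx2 peak, 3.26-fold with a −log10 q of 3.42, lay in an intron 76.8 kb from the first TSS under H3K4me1 at 15.7-fold. No peak of any list lay within 1 kb of the TSS of Mitf-203 at 123 kb, nor of the last TSSs between 184.7 kb and 184.9 kb, the end of the gene where the melanocyte promoter lies. No H3K27ac peak was present in the window, and the nearest was 56.5 kb from a Mitf TSS.

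H3K4me1 around Mitf was spread over 16 peaks, from 2.35-fold to 15.7-fold. As many or more were found in the windows of 7.66% of genes, but the Mitf window of 254 kb is long, and by the share of the window covered, 7.48%, 42.6% of genes reached at least as much. None of the 3 Otx2 peaks of Mitf contained TAATCC or TAATCT.

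At its upstream starts Pmel shared its promoter with a gene of the cell cycle, and the promoter marks of the pair cannot be told apart there. Pmel lies on the plus strand of chromosome 10 (GRCm38 chr10:128704195-128720238, ENSMUSG00000025359.10), and Cdk2, a cyclin-dependent kinase, starts within 1 kb on the opposite strand. The H3K4me3 peak of 11.3-fold had its summit where the Cdk2 UTR and a Pmel intron overlap. The Otx2 peak there was the weakest of the 11, 2.24-fold with a −log10 q of 2.77 and a width of 225 bp, and 95.9% of the Otx2 list was at least as high. A second H3K4me3 peak, 2.58-fold and 240 bp wide, lay 1.35 kb into Pmel and had the highest q-value (−log10 q 1.40) of the H3K4me3 peaks in the windows. All promoter peaks of Pmel also lay within 1 kb of a Cdk2 TSS. The coding transcript Pmel-201 starts 2.06 kb from the first TSS, with no TSS of another coding gene within 1 kb. Near that start lay only the H3K4me3 peak of 2.58-fold and H3K4me1 at 5.99-fold, and no Otx2 peak. At the start of Rab5b, an endosomal GTPase in the same window, H3K4me3 reached 29.2-fold. Otx2 there was 3.83-fold and H3K27ac 3.19-fold, with 42.0% and 58.6% of their lists at least as high.

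Rpe65, the isomerase of the visual cycle, had no peak of any list in its window of 66.1 kb, which was true of 17.1% of protein-coding genes. It lies on the plus strand of chromosome 3 (GRCm38 chr3:159599175-159625321, ENSMUSG00000028174.12). The nearest H3K4me1 peak was 54.2 kb and the nearest H3K4me3, H3K27ac and Otx2 peaks about 103 kb from an Rpe65 TSS. Its upstream sequence is shown beside that of Dct because it also holds TAATCC (on the opposite strand, GGATTA, 42 bases before the RefSeq start site), and no Otx2 peak was called there. The capitals mark TAATCC and CATGTG on either strand, and the last 6 bases before the RefSeq start are left out because GENCODE places them in the UTR.
Rpe65 (GRCm38 chr3:159598931-159599174, plus strand): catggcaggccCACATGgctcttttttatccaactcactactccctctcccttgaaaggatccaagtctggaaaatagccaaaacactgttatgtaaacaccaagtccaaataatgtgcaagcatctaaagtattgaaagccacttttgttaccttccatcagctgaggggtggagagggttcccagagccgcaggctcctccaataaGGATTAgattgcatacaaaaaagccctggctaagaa

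TAATCC was present upstream of 4 of the 7 genes with a RefSeq start (Mitf, Dct, Rpe65 and Best1), and only at Dct did an Otx2 peak cover it. Of all promoters 6.25% held it, but these were counted singly. The genes were counted over any of their 9 start sites, and Mitf has more than 1. The Mitf match lies upstream of the second RefSeq start, near Mitf-203, where no peak of any list was called.

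Lrat, which supplies the substrate of Rpe65, differed from it in having marked chromatin. It lies on the minus strand of chromosome 3 (GRCm38 chr3:82892579-82903973, ENSMUSG00000028003.6). H3K4me1 reached 7.91-fold over 1563 bp at its promoter, with no other mark there. That peak also lay within 1 kb of a TSS of the antisense gene Rbm46os, so it cannot be assigned to Lrat alone. An Otx2 peak of 4.07-fold (−log10 q 13.2, 752 bp) lay 16.98 kb downstream of the Lrat TSS, past the end of Lrat and in an intron of Rbm46os. No histone peak overlapped it, as was the case for 7.20% of all Otx2 peaks. The 60 bases around its TAATCC, which lay 41 bp from the summit, and around a TAATCT, 56 bp from the summit, are shown because this peak holds the match closest to a summit among the 8 genes. The capitals mark TAATCC, and TAATCT on the opposite strand (AGATTA).
Lrat TAATCC (GRCm38 chr3:82886924-82886983, minus strand): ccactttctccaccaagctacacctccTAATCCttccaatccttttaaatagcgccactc
Lrat TAATCT (GRCm38 chr3:82887021-82887080, minus strand): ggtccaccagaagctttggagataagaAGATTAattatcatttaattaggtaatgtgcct

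Best1 had Otx2 inside the gene and not at its main start. It lies on the minus strand of chromosome 19 (GRCm38 chr19:9985174-10001633, ENSMUSG00000037418.6), and its main TSS, which lies within 1 kb of a TSS of Rab3il1, had no peak of any list. The Otx2 peak of 4.59-fold (−log10 q 12.9) and H3K4me1 at 5.14-fold lay in an intron, 8.29 kb from the first TSS for Otx2, and counted as promoter peaks only through Best1-202, a transcript annotated without coding sequence. The other Otx2 peaks of the Best1 window stood at the starts of its neighbours Fth1, the ferritin heavy chain (4.31-fold), and Rab3il1, an exchange factor of vesicle transport (3.76-fold). H3K4me3 was present at the same places, 26.9-fold at Fth1 and 3.47-fold at Rab3il1, and not at a Best1 TSS.

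Over the 8 windows, 730 kb in total, there were 6 H3K4me3, 4 H3K27ac, 45 H3K4me1, 11 Otx2 and 0 Neurod1 peaks. At least 1 H3K4me3 peak was found in 3 windows (66.6% of all genes had one), H3K27ac in 3 (53.7%), H3K4me1 in 7 (81.2%), Otx2 in 6 (69.9%) and Neurod1 in 0 (19.4%). Many of these peaks stood within 1 kb of a TSS of another coding gene: 5 of 6 for H3K4me3, 2 of 4 for H3K27ac, 8 of 45 for H3K4me1 and 4 of 11 for Otx2. Without them H3K4me3 remained at 1 gene, Mitf, and Otx2 had 7 peaks at 5 genes. The windows were of similar length to those of all genes (median 61.9 kb against 57.4 kb). H3K4me1 covered a median of 7.29% of them against 5.95% over all genes, and Otx2 1.16% against 1.20%.

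**Figure D3:**
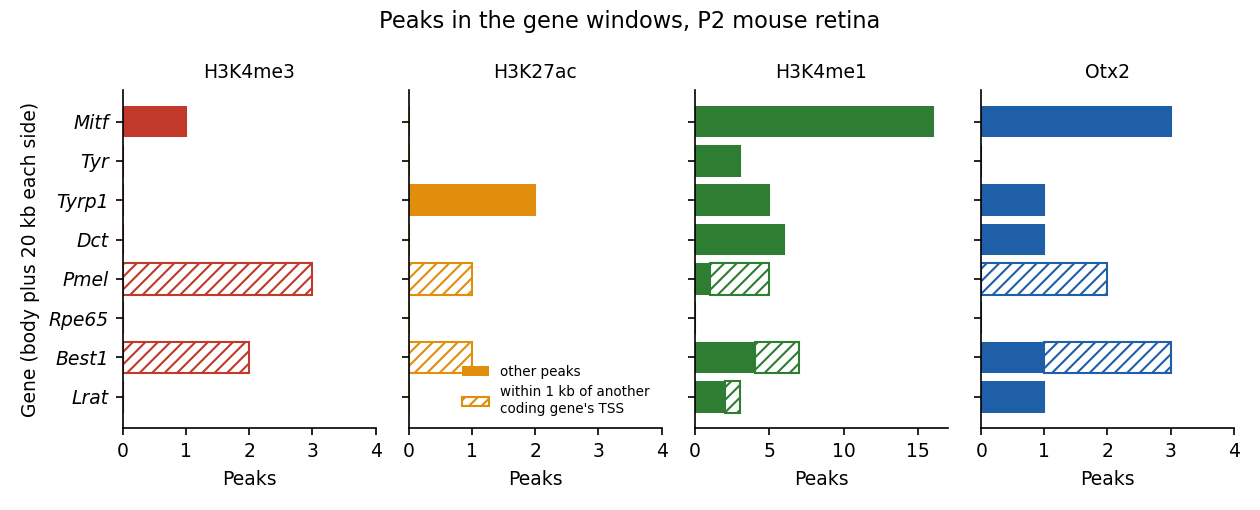
Number of peaks (horizontal axis) in the body plus 20 kb of each gene, by list; hatched bars are peaks within 1 kb of a TSS of another coding gene. The H3K4me3 bars of Pmel (3) and Best1 (2) are all hatched, and Mitf leads in H3K4me1 with 16. Neurod1 had 0 peaks and is not drawn.

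The 11 Otx2 peaks were sorted by the histone peaks they overlapped, as promoter (H3K4me3), active enhancer (H3K27ac without H3K4me3), poised enhancer (H3K4me1 alone) or none. There were 5 promoter, 1 active enhancer, 4 poised enhancer and 1 without a histone peak. The active enhancer call, at Tyrp1, did not hold under any of the alternatives run: the class fell to 0 at a −log10 q of at least 5, with an overlap of at least 250 bp, or with the Otx2 summit inside the histone peak. All 29115 Otx2 peaks fell 43.3%, 22.6%, 26.9% and 7.20% into these classes. Of the 7 away from other coding genes' starts, 1 was in the promoter class (Mitf), 1 active (Tyrp1, with that limit), 4 poised (Mitf with 2 peaks, Dct and Best1) and 1 without histone peak (Lrat). Within the poised class of 7837 peaks the Dct peak ranked 81, so that 1.03% were at least as high.

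TAATCC was present in 4 of the 11 Otx2 peaks, against 28.6% of the whole list, and TAATCT in 2, against 22.3%. The 4 were those of Dct, Tyrp1, Lrat and the Rab5b start in the Pmel window, and 3 of the 7 peaks away from other coding starts held it. The letters were searched over the whole peak, so a wider peak has more room for a match. Those with TAATCC were 600 bp to 1596 bp wide, against a list median of 561 bp, but the Fth1 peak of 1416 bp held neither string. The match lay 41 bp from the summit at Lrat, 111 bp at Dct, 169 bp at Tyrp1 and 406 bp at Rab5b. The strongest peak therefore held the letters, as did some weaker ones, and the Best1 peak of 4.59-fold held neither string.

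**Figure D4:**
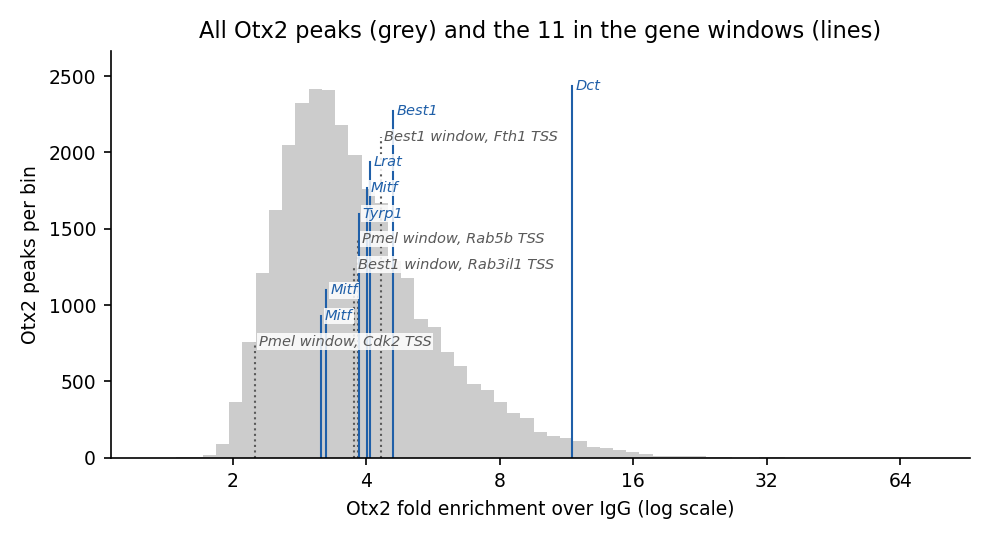
Histogram of the fold enrichment over IgG (log axis) of all 29115 Otx2 peaks, with the 11 in the gene windows as lines (solid blue: away from other coding genes' starts; dotted grey: at such a start). Dct at 11.6-fold stands in the upper tail, and the others lie between 2.24-fold and 4.59-fold around the list median of 3.54-fold.

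Further genes of the pigment epithelium, 24 in all, were examined in the same way, as were 19 genes of rod phototransduction, which Otx2 and Crx regulate in photoreceptors. Of the 24, promoter H3K4me3 was present at 8, H3K27ac at 6, H3K4me1 at 19, Otx2 at 11 and Neurod1 at 2. Of the 19 rod genes the counts were 11, 5, 15, 12 and 1. The share with promoter H3K4me3 was thus 25% in the 8 genes, 33.3% in the 24 and 57.9% in the rod genes, and the share with Otx2 was 62.5%, 45.8% and 63.2%. Over all protein-coding genes the shares were 56.0% for H3K4me3, 22.6% for H3K27ac, 63.6% for H3K4me1, 51.0% for Otx2 and 5.76% for Neurod1. For the 24 and the 19 genes, peaks at the starts of neighbouring genes were not set apart.

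The 24 genes divided by role. Among 9 other melanosome and melanin genes, promoter H3K4me3 was present at 1, Rab27a, a GTPase of melanosome transport that many cell types use, and Otx2 at 2, Rab27a (2.72-fold) and Rab38 (3.74-fold). Among 7 other genes of retinoid handling, H3K4me3 was present at 3 and Otx2 at 4. Rdh10 and Rdh5, retinol dehydrogenases, had Otx2 at 8.82-fold and 8.25-fold, each with H3K4me3. Ttr, the carrier of retinol-binding protein, had Otx2 at 4.06-fold without H3K4me3. Rlbp1, the retinaldehyde-binding protein that Müller glia also make, had Otx2 at 2.52-fold with H3K4me3 at 2.98-fold and H3K27ac at 8.999-fold. Among 8 genes of other pigment epithelium functions, H3K4me3 was present at 4 and Otx2 at 5. The Otx2 values were 4.08-fold at Ezr, 3.09-fold at Timp3, 2.82-fold at Mertk, the receptor for engulfing outer segments, 2.61-fold at Slc16a8 and 2.23-fold at Efemp1, the last 2 without H3K4me3. Neurod1 stood at the promoters of Rab27a (3.29-fold) and Rdh5 (2.92-fold).

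**Figure D5:**
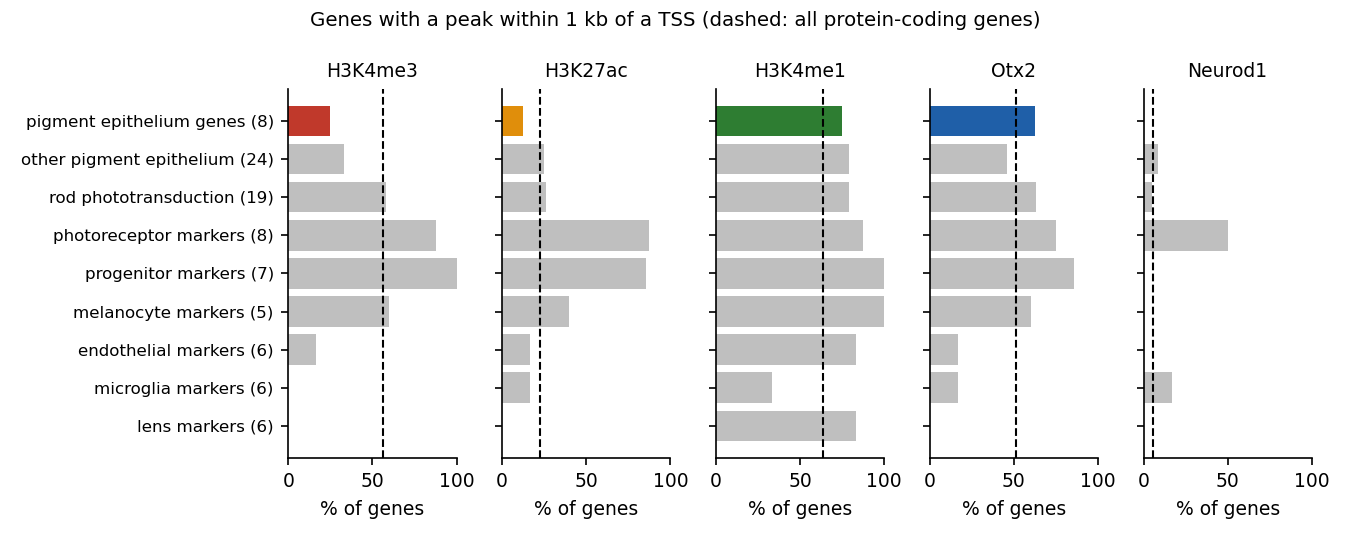
Share of genes (%) with a peak within 1 kb of a TSS, by gene list (rows, number of genes in brackets) and peak list (panels); the dashed line is the share over all protein-coding genes. The 8 pigment epithelium genes lie at 25% for H3K4me3, against 56.0% of all genes, and at 62.5% for Otx2, against 51.0%.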

How the data were processed

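CUT&RUN libraries of P2 mouse retinas (20 libraries, 2 biological replicates of 3 pooled individuals) were analysed from the deposited peak lists. The members and gene lists were chosen with earlier results of these data known. The authors trimmed reads (cutadapt 3.5, Trim Galore 0.6.4), aligned them to GRCm38 with Bowtie2, removed reads of low mapping quality (limit 30, SAMtools 1.12) and duplicates by position (UMI-tools, not using the UMIs), joined technical replicates, and ran macs2 once per target over the replicates together, with IgG as control and a q limit of 0.05. Peaks on mitochondrial DNA and blacklisted regions were removed. The joint call gives 1 value per peak, so antibodies and replicates cannot be compared, and calls depend on a depth that the lists do not give. The deposited values used were the fold enrichment over IgG, a ratio, and the −log10 q-value. The strain of the CUT&RUN mice is not given in the sources used here.

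The 5 mouse lists (14069 H3K4me3, 62930 H3K27ac, 135798 H3K4me1, 29115 Otx2 and 4744 Neurod1 peaks) were intersected (at least 1 bp) with GENCODE M21 TSSs ± 1 kb and gene bodies plus 20 kb. The same was done for all 21938 protein-coding genes. Upstream sequences are from RefSeq (GRCm38.p6) and other sequences from the same assembly. Overlaps and motif searches were tested on simulated data against bedtools 2.31.1 with 0 differences in 2000 windows, and 0 of 500 planted motifs were missed. Python 3.11.15, numpy 2.4.6 and pandas 2.3.3 were used. All 8 genes are described, with every H3K4me3, H3K27ac and Otx2 peak of their windows in the counts. Other genes are named where their start lies at such a peak, where they are listed genes with an Otx2 or Neurod1 promoter peak or a shared promoter pattern, or, after their values were seen, as exceptions in a count (Rcvrn, Sox10 and Erbb3). Alternatives varied the q-value, fold, overlap, distance, transcripts and motif. The authors' 13LGS lists were not used.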

Additional observations from a re-analysis of the deposited data

How the results depend on the processing

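No paired analysis was possible because each list is 1 joint call over the replicates of its target, and for the same reason no library could be left out. Of 85 recomputed counts 66 stayed within 1.5 times the reported count. The promoter counts for H3K4me1, Otx2 and Neurod1, and the Neurod1 count of 0 peaks, did so under all alternatives tried for them. Requiring a −log10 q of at least 5 left 0 of 1 genes with promoter H3K27ac and 0 of 4 H3K27ac window peaks, so the Tyrp1 H3K27ac result rests on peaks of modest q, and it left 3 Otx2 peaks in the promoter class and 0 in the active class. The active class also fell to 0 when the histone overlap had to reach 250 bp or had to include the Otx2 summit. With the 250 bp overlap, 4 Otx2 peaks were in the promoter class, 5 in the poised class and 2 had no histone mark. The Otx2 peak at the Pmel and Cdk2 starts, 225 bp wide, is too narrow to reach that overlap. Leaving out peaks at another coding gene's TSS left promoter H3K4me3 at 1 gene and 1 H3K4me3, 2 H3K27ac and 7 Otx2 window peaks. Gene bodies alone held 3 H3K4me3, 2 H3K27ac, 26 H3K4me1 and 7 Otx2 peaks, and flanks of 50 kb gave 12, 9 and 81 for the histone marks in that order. TAATCC lay within 150 bp of the summit in 2 of the Otx2 peaks (Dct and Lrat), against 16.1% of the whole list. The lists hold no counts, so what read depth limits could not be computed: a missing peak means only that none passed the call.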
